A study of Drosophila sechellia and Drosophila simulans with 8 samples.

Results

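The data follow 10 genes of the odorant-binding protein family across 8 arrays of adult female body RNA: Obp99a, Obp99b, Obp99c, Obp99d, Obp44a, Obp18a, Obp19a, Obp19b, Obp19c and Obp19d. They were chosen by name, as the probe sets whose only gene symbol in the probe annotation is one of these 10 symbols, which took 12 of the 18952 probe sets. Of these 12, 9 probe sets, 1 for each gene except Obp99d, were bright enough to be tested. The 2 species D. sechellia and D. simulans were each sampled in a choice and a no choice treatment with a mixture of hexanoic and octanoic acid. This gives 4 groups of 2 arrays: sechellia choice, sechellia no choice, simulans choice and simulans no choice. All flies were adult females reared at 25 °C on agar, yeast and cornmeal. The strains, the age, the offered alternatives and the length of the exposure are not given in the sources used here, nor is whether the arrays of a group came from separate flies. The p-values therefore measure only the spread between these arrays, which may be technical.

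Odorant-binding proteins are small secreted proteins with a hydrophobic pocket. In the lymph of insect olfactory and gustatory hairs they carry poorly soluble odorants, pheromones and tastants, and several are also made in tissues without such hairs, among them fat body and glia. D. sechellia is a specialist of noni (Morinda citrifolia), whose ripe fruit holds much octanoic and hexanoic acid and is toxic to its generalist relatives, D. simulans among them. Genes that share a number in their name, such as the Obp99 and the Obp19 genes, are neighbours on a D. melanogaster chromosome.

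Values are MAS5 signal, a linear scale in arbitrary units that the authors had already scaled between arrays. Signals of different probe sets cannot be set against each other, so each gene is compared only with itself. The arrays carry probes for D. melanogaster, so a sequence difference between the species and a difference in RNA cannot be told apart. Array 1 of sechellia choice was unlike the rest. The standard deviation of its log2 signal was 1.39, against 2.06 to 2.15 on the other 7, so its signals spanned a narrower range. Its median signal was 316.7, against 110.7 to 129.8. Whether a value of array 1 that lies apart from the other arrays reflects RNA was not tested. Its Pearson correlation of log2 signal with them over 13138 probe sets was 0.674 to 0.720, against 0.912 to 0.969 among the other 7, and the median of its Bacillus controls, for which flies have no RNA, was 126.4, against 12.3 to 21.5. It is therefore named wherever its value is given, and each test is given with 8 arrays and without it, as 7 arrays. With 7 arrays only array 2 is left in sechellia choice, and its spread is taken from the other 3 groups. Probe sets with a limma adjusted p below 0.05 over all 13138 tested ones are called. In RNA from bodies, fewer cells of a type and less RNA per cell cannot be told apart.

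The label of the samples was checked against markers. On the 7 arrays the 3 yolk protein genes, made in female fat body and ovary, lay between 17470 and 33206, and the muscle genes Act88F, Mlc2 and up were above background on all 7. Of 9 antennal markers, 6 to 8 were above the Bacillus median, at signals of at most 163.4, and lush, an odorant-binding protein of antennal trichoid hairs, was below it on all 7. Of 4 eye and head markers, inaD and trp were below it and the arrestin genes Arr1 and Arr2 above it on all 7. Of 8 male gland and testis markers 6 to 7 were above it, the brightest Mst98Ca at 112.5 to 228.0, while dj, of sperm, was at most 3.4. The Bacillus median is a low mark, at 12.3 to 21.5 on these 7 arrays, where the median signal was 110.7 to 129.8. A count above it does not by itself show that RNA of antenna, eye or male organs was present.

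**Figure D1:**
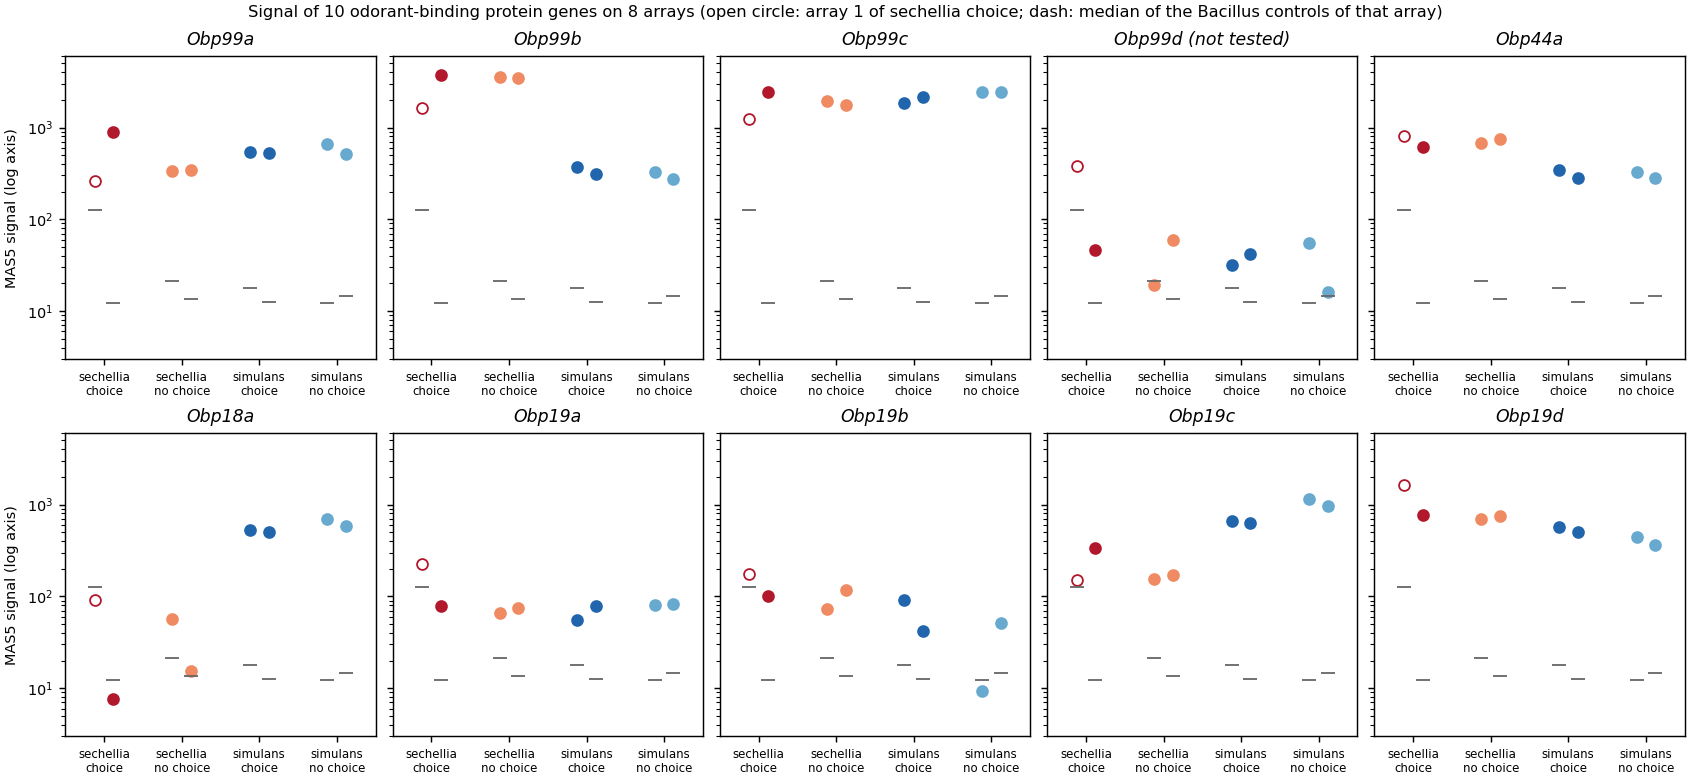
MAS5 signal, on a log axis, of the brightest probe set of each of the 10 genes in sechellia choice, sechellia no choice, simulans choice and simulans no choice; each circle is 1 array, the open circle is array 1 of sechellia choice and each dash is the median of the Bacillus controls on the array it stands under or over. Obp99b, Obp44a and Obp19d are higher and Obp18a and Obp19c lower on all 4 sechellia arrays than on any simulans array.

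Sechellia bodies had more signal than simulans bodies for Obp99b, Obp44a and Obp19d, and less for Obp18a and Obp19c. Averaged over both treatments, 5 of the 9 tested genes were called with 8 arrays (3 higher and 2 lower), where 9.87% of all tested probe sets were called. The same 5 were called with 7 arrays, where 32.5% of all probe sets were called. The signals of these 5 genes did not overlap between the species, with 8 arrays or with 7, as was the case for 21.9% and 34.8% of all tested probe sets. The median log2 difference of the 9 genes was 0.40 with 8 arrays and 0.02 with 7, and that of all tested probe sets was 0.14 and 0.07.

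**Figure D2:**
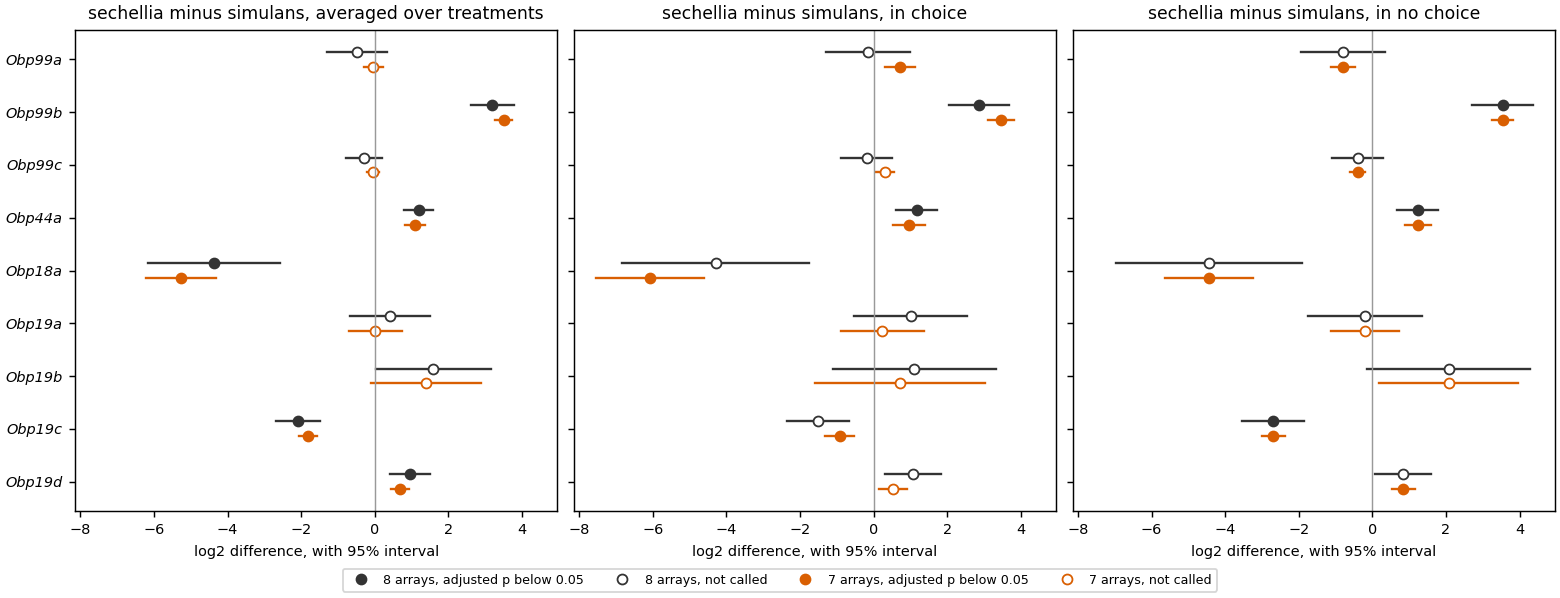
Log2 differences, sechellia minus simulans, of the 9 tested genes, averaged over treatments, in choice and in no choice; lines are 95% intervals of the limma fit with 8 arrays (dark) and 7 arrays (orange), and filled circles are called. Obp99b and Obp44a are filled to the right of 0 in all 3 panels and both fits, and Obp18a and Obp19c lie left of 0 throughout.

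Obp99b had the largest rise of the 9 in sechellia. In D. melanogaster this gene is also known as turn on sex-specificity and is expressed in fat cells of the head, more in males than in females. Its signal was 1620.6 (array 1) and 3771.5 in sechellia choice and 3582.8 and 3444.2 in sechellia no choice, against 373.8 and 310.1 in simulans choice and 330.0 and 277.5 in simulans no choice. Every sechellia array, array 1 included, was over 4 times the brightest simulans array. The 3 other sechellia arrays lay within 10% of each other. Averaged over treatments the log2 difference was 3.20 ± 0.25 (SE, 4 arrays per species; adjusted p = 0.00026), and 3.50 ± 0.10 with 7 arrays (adjusted p = 8e-08), which is 9.18-fold and 11.3-fold higher in sechellia. Relative to the median of all tested probe sets it was 3.06 and 3.44. Leaving out each array in turn kept the call in 8 of 8 fits, with adjusted p from 8e-08 to 0.0045.

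Obp44a, in D. melanogaster a product of glia in the larval brain that binds fatty acids, was higher in sechellia as well. It gave 809.8 (array 1) and 606.1 in sechellia choice and 675.1 and 756.7 in sechellia no choice, against 345.6 and 281.3 in simulans choice and 331.0 and 280.3 in simulans no choice. All 8 arrays fell into these separate ranges, and within each group the brighter array was at most 1.34 times the dimmer, the smallest spread of any called gene in sechellia choice. The difference was log2 1.20 ± 0.17 (adjusted p = 0.0043) with 8 arrays and 1.09 ± 0.12 (adjusted p = 0.00021) with 7, or 2.30-fold and 2.14-fold. Centring each array on its median gave 0.76 and lost the call (adjusted p = 0.24), while the median of all probe sets then moved to -0.30. Leaving out each array kept the call in 8 of 8 fits.

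Obp19d, found in D. melanogaster as pheromone-binding protein-related protein 2 and present in olfactory and gustatory hairs, gave 1623.7 (array 1) and 777.0 in sechellia choice and 689.3 and 751.9 in sechellia no choice. The simulans arrays gave 574.1 and 504.3 in choice and 444.3 and 361.4 in no choice. Array 1 was the highest of all, but the lowest sechellia value was still above the highest simulans value. The difference was log2 0.95 ± 0.23 (adjusted p = 0.04) with 8 arrays and 0.69 ± 0.11 (adjusted p = 0.0015) with 7. With 8 arrays the call was lost after quantile normalisation, at 1.04 (adjusted p = 0.12), after median centring, at 0.52 (adjusted p = 0.41), and without an intensity trend (adjusted p = 0.11). It was also lost without any 1 of the 6 arrays outside sechellia choice, at 0.88 to 1.03 (adjusted p = 0.12 to 0.17), each of these fits holding array 1.

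Some markers of other cells were also higher in sechellia, and others were not. The summed signal of the 4 eye and head markers found, of 8 sought, was 1390.3 (array 1) and 624.6 to 687.8 on the other sechellia arrays, against 169.8 to 438.7 in simulans, and on the 7 arrays nearly all of it came from Arr1 and Arr2. The summed signal of 9 antennal markers was 1998.4 (array 1) and 411.6 to 530.3 on the other sechellia arrays, against 488.4 to 679.8 in simulans. These overlap apart from array 1. On array 1 only 5 of the 9 were above its background of 126.4, against 6 to 8 on the other 7 arrays. Lsp2, a storage protein of the fat body, gave 866.5 (array 1) and 1056.4 in sechellia choice and 1483.8 and 1402.1 in sechellia no choice, against 409.1 and 413.2 in simulans choice and 271.8 and 286.7 in simulans no choice. The 5 fat body markers together, mostly yolk proteins, ran from 69255 to 82458 on the other sechellia arrays and from 63687 to 77549 in simulans, which overlap. The part of these cells in the 3 genes was not tested.

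Obp18a had the largest fall of the 9 in sechellia. Its signal was 91.8 (array 1) and 7.7 in sechellia choice and 56.2 and 15.4 in sechellia no choice, against 534.7 and 508.0 in simulans choice and 694.4 and 591.1 in simulans no choice. Both sechellia choice arrays lay below the Bacillus median of their own array, and both no choice arrays lay above it. The simulans arrays differed by at most 1.17 times within a group, whereas the no choice pair of sechellia differed 3.65-fold. The fitted log2 difference was -4.37 ± 0.78 (adjusted p = 0.011) with 8 arrays and -5.26 ± 0.41 (adjusted p = 2.8e-05) with 7. With signals raised to the background of their array the difference was -4.08 and -4.92, so Obp18a was at least 17.0-fold lower with 8 arrays and at least 30.4-fold lower with 7. With 8 arrays the adjusted p rose to 0.058 without array 2 of sechellia no choice, at -3.90, and to between 0.063 and 0.070 without any 1 simulans array, at -4.43 to -4.31. It stayed below the threshold without array 1 of sechellia no choice (0.032) or either sechellia choice array (2.8e-05 and 0.00014).

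Obp19c was lower in sechellia too. Its brightest probe set gave 152.0 (array 1) and 340.1 in sechellia choice and 156.0 and 172.0 in sechellia no choice, against 657.0 and 633.5 in simulans choice and 1163.7 and 962.0 in simulans no choice. Simulans no choice was highest, simulans choice lay below it and sechellia was lowest, with array 2 of sechellia choice above the 3 other sechellia arrays. The value on array 1 was close to its background of 126.4. The difference was log2 -2.10 ± 0.26 (adjusted p = 0.0023) with 8 arrays and -1.81 ± 0.11 (adjusted p = 5.9e-06) with 7, which is 4.28-fold and 3.50-fold lower. It kept the call in 8 of 8 fits with an array left out. The second probe set of Obp19c was too dim to be tested, at 189.9 (array 1) and 44.1 in sechellia choice, 11.5 and 66.0 in sechellia no choice, 10.6 and 12.2 in simulans choice and 33.2 and 51.1 in simulans no choice. It lay below background on both simulans choice arrays and on 1 sechellia no choice array. With signals raised to background and 7 arrays, its species difference was log2 1.57 in choice, from array 2 alone in sechellia. In no choice it was -0.13 and averaged over treatments 0.72, with no test. In choice and on average this is the opposite direction to that of the brighter probe set, on which the call rests.

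The other 4 tested genes, Obp99a, Obp99c, Obp19a and Obp19b, were not called for the species difference averaged over treatments, in either fit. Obp99a gave log2 -0.48 ± 0.35 with 8 arrays (95% interval -1.28 to 0.33) and -0.03 ± 0.11 with 7 (-0.29 to 0.23), and Obp99c gave -0.29 ± 0.21 (-0.79 to 0.20) and -0.04 ± 0.07 (-0.21 to 0.12). With 7 arrays these 2 intervals hold no difference as large as that of Obp44a, but they rest on array 2 alone in sechellia choice. With array 1 in its place the difference was -0.92 for Obp99a and -0.54 for Obp99c, outside these intervals. The average of Obp99a with 7 arrays also joins -0.79 in no choice with 0.72 in choice. Obp19a, one of the abundant odorant-binding proteins of the D. melanogaster antenna, gave 0.40 ± 0.47 (-0.68 to 1.49) and 0.02 ± 0.32 (-0.71 to 0.75), with the sign turned after quantile normalisation or median centring. Its signals were low, at 228.0 (array 1) and 78.6 in sechellia choice, 66.7 and 74.0 in sechellia no choice, 55.9 and 79.1 in simulans choice and 80.0 and 81.6 in simulans no choice. Apart from array 1 the ranges of the species overlapped. A second probe set of Obp19a, too dim to be tested, gave 171.1 (array 1) and 82.6 in sechellia choice and 11.2 and 9.2 in sechellia no choice, against 14.9 and 14.3 in simulans choice and 45.0 and 10.9 in simulans no choice. Both sechellia no choice arrays lay below background. With 7 arrays and signals raised to background it was 4.85-fold higher in sechellia choice, from array 2 alone, than in no choice, with no test. The 171.1 of array 1 was close to its own high background of 126.4, so no bound is given with 8 arrays. On the tested probe set array 2 of sechellia choice, at 78.6, was close to no choice, at 66.7 and 74.0.

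Obp19b, an odorant-binding protein of gustatory hairs that takes part in amino acid taste in D. melanogaster, gave 174.1 (array 1) and 102.0 in sechellia choice and 73.5 and 117.1 in sechellia no choice, against 90.5 and 42.1 in simulans choice and 9.4 and 51.8 in simulans no choice. The highest simulans array lay above the lowest sechellia array, and the simulans no choice pair differed 5.51-fold, with the lower of them under background. The difference of log2 1.59 ± 0.67 (adjusted p = 0.2) with 8 arrays and 1.40 ± 0.65 (adjusted p = 0.14) with 7 did not pass. Obp99d was not tested: its geometric mean signal of 47.2 lay just under the limit of 49.9. It gave 384.5 (array 1) and 46.1 in sechellia choice, 19.4 and 60.0 in sechellia no choice, 31.9 and 42.1 in simulans choice and 55.4 and 16 in simulans no choice, with ranges that overlapped.

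The species difference was then taken within each treatment. Under choice, 2 of the 9 genes were called with 8 arrays, against 4.14% of all tested probe sets, and 5 with 7 arrays, against 19.4%. Under no choice, 3 of the 9 were called with 8 arrays, against 4.22% of all, and 7 with 7 arrays, against 28.2%. Obp99b was higher in sechellia under both treatments, by log2 2.86 ± 0.35 in choice (adjusted p = 0.0064) and 3.54 ± 0.35 in no choice (adjusted p = 0.0016). With 7 arrays it was higher by 3.47 ± 0.15 and 3.54 ± 0.12. The no choice call of Obp99b held in 7 of 8 limma fits that left out no single array, this one included (adjusted p up to 0.066). Without array 1 or array 2 of simulans choice the choice call of Obp99b was lost, at 3.0 and 2.73 (adjusted p = 0.073 and 0.1), as it was after median centring, at 2.06 (adjusted p = 0.22), and with only the arrays compared (adjusted p = 0.14). Obp44a was higher by 1.17 ± 0.24 in choice (adjusted p = 0.04) and 1.23 ± 0.24 in no choice (adjusted p = 0.031), and by 0.96 ± 0.19 and 1.23 ± 0.16 with 7 arrays (adjusted p = 0.0089 and 0.00056). With 8 arrays both calls of Obp44a were lost after quantile normalisation (adjusted p = 0.078 and 0.075), after median centring, at 0.37 and 1.16 (adjusted p = 0.58 and 0.44), and without an intensity trend (adjusted p = 0.1 and 0.089). The choice call was also lost with only the arrays compared (adjusted p = 0.39). Both were lost as well without any 1 of the 6 arrays outside sechellia choice, at 1.02 to 1.32 in choice (adjusted p = 0.1 to 0.29) and 1.11 to 1.35 in no choice (adjusted p = 0.079 to 0.3).

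Obp18a was lower under both treatments with 7 arrays, by log2 -6.08 ± 0.64 in choice and -4.44 ± 0.52 in no choice. With signals raised to background Obp18a was 42.4-fold lower in choice, from array 2 alone in sechellia. With 8 arrays it gave -4.29 ± 1.10 (adjusted p = 0.074) and -4.44 ± 1.10 (adjusted p = 0.072), neither past the threshold, although it passed in both after quantile normalisation (adjusted p = 0.0076 and 0.015). Obp19c was lower in no choice by -2.69 ± 0.37 (adjusted p = 0.007), and in choice it gave -1.50 ± 0.37 (adjusted p = 0.065). With 7 arrays it was lower in both, by -2.69 ± 0.14 in no choice and -0.92 ± 0.17 in choice (adjusted p = 3.1e-06 and 0.0059), a 6.46-fold and a 1.90-fold difference. The no choice call of Obp19c with 8 arrays was lost without any 1 of the 4 no choice arrays, at -2.83 to -2.55 (adjusted p = 0.07 to 0.11), and after quantile normalisation, at -2.45 (adjusted p = 0.19), or median centring, at -2.77 (adjusted p = 0.1). Obp19d gave 1.06 ± 0.33 in choice (adjusted p = 0.12) and 0.85 ± 0.33 in no choice (adjusted p = 0.26), and with 7 arrays it passed in no choice at 0.85 ± 0.14 (adjusted p = 0.0022) and gave 0.53 ± 0.17 in choice (adjusted p = 0.06).

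Obp99a and Obp99c, which were not called on average, differed within treatments with 7 arrays. The signal of Obp99a was 258.6 (array 1) and 882.8 in sechellia choice and 332.2 and 341.4 in sechellia no choice, against 541.6 and 528.0 in simulans choice and 666.0 and 509.9 in simulans no choice. In no choice both sechellia arrays lay below both simulans arrays, and in choice the 2 sechellia arrays lay on either side of them. With 7 arrays Obp99a was lower in sechellia in no choice, by log2 -0.79 ± 0.14 (adjusted p = 0.0038), and in choice, where only array 2 was left, it gave 0.72 ± 0.18 (adjusted p = 0.022). With array 1 alone in place of array 2 the difference of Obp99a in choice was -1.05. With 8 arrays it gave -0.79 ± 0.49 (adjusted p = 0.57) and -0.16 ± 0.49 (adjusted p = 0.84). Obp99c gave 1224.6 (array 1) and 2450.8 in sechellia choice and 1931.2 and 1748.8 in sechellia no choice, against 1836.8 and 2128.6 in simulans choice and 2408.8 and 2429.1 in simulans no choice. It was lower in sechellia in no choice with 7 arrays, by -0.40 ± 0.09 (adjusted p = 0.012), and was not called there with 8 (adjusted p = 0.68). In choice Obp99c was not called, at -0.19 ± 0.30 (adjusted p = 0.68) with 8 arrays and 0.31 ± 0.11 with 7. With array 1 alone in place of array 2 it gave -0.69.

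The effect of choice was compared within each species. In sechellia, limma called none of the 9 genes with 8 arrays (0 with an unadjusted p below 0.05), where 0.0533% of all probe sets were called. With 7 arrays it called 2, Obp99a and Obp19c, against 2.49% of all. Both calls rest on array 2 of sechellia choice. Obp99a rose to 882.8 on that array, against 332.2 and 341.4 in no choice, a log2 change of 1.39 ± 0.18 (adjusted p = 0.0056), but array 1 had 258.6, below both. With array 1 as the only choice array in place of array 2 the change was -0.38 (adjusted p = 0.1), and with both it was 0.50 ± 0.49. Obp19c rose to 340.1, against 156.0 and 172.0, by 1.05 ± 0.17 (adjusted p = 0.017), while array 1 had 152.0. Without array 2 the change of Obp19c was -0.11 (adjusted p = 0.6), and with both arrays it was 0.47 ± 0.37. For Obp99c the change was 0.42 ± 0.11 with 7 arrays (adjusted p = 0.1), -0.09 ± 0.30 with 8 and -0.59 without array 2 (adjusted p = 0.002). In that fit without array 2, limma called 5 of the 9 genes and 8671 of all probe sets.

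**Figure D3:**
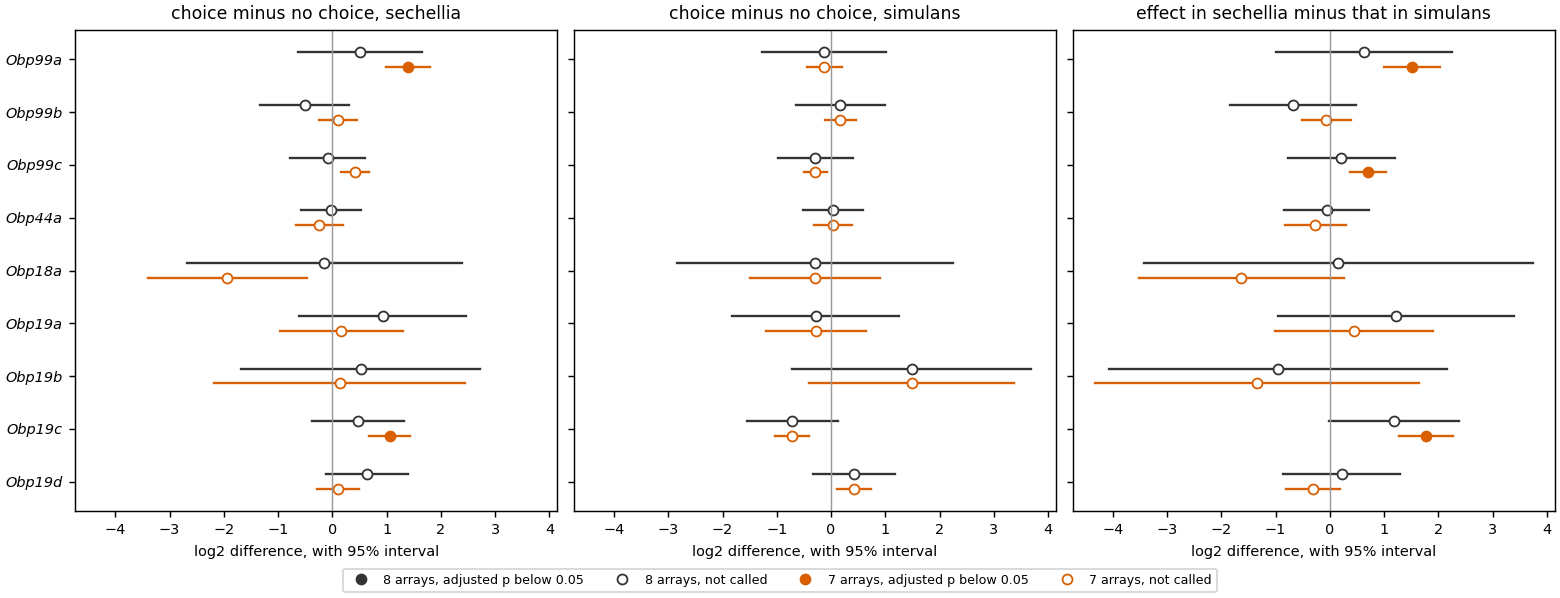
Log2 change with choice (choice minus no choice) in sechellia and in simulans, and the difference between these 2 changes, for the 9 tested genes; lines are 95% intervals with 8 arrays (dark) and 7 arrays (orange), and filled circles are called. Filled circles are Obp99a and Obp19c in the sechellia panel and Obp99a, Obp99c and Obp19c in the panel of the difference, all with 7 arrays.

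In simulans limma called none of the 9 with 8 arrays (0 with an unadjusted p below 0.05) and none with 7 (3 with an unadjusted p below 0.05), against 0.00761% and 0.274% of all probe sets. The choice and no choice arrays of simulans did not overlap for 5 of the 9 genes, 4 lower and 1 higher in choice, which was the case for 47.2% of all tested probe sets. Obp19c was the nearest to a call, at log2 -0.71 ± 0.37 (adjusted p = 1) with 8 arrays and -0.71 ± 0.14 (adjusted p = 0.08) with 7. Obp19d gave 0.43 ± 0.33 and 0.43 ± 0.14 (adjusted p = 1 and 0.21), Obp99c -0.29 ± 0.30 and -0.29 ± 0.09 (adjusted p = 1 and 0.2), and Obp99a -0.12 ± 0.49 and -0.12 ± 0.14 (adjusted p = 1 and 0.75).

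The difference between the 2 choice effects was tested as an interaction. None of the 9 genes was called with 8 arrays (0 with an unadjusted p below 0.05), where 0.0152% of all probe sets were called. With 7 arrays 3 were called, Obp99a, Obp99c and Obp19c, against 2.79% of all. For Obp19c the change with choice was 1.05 in sechellia and -0.71 in simulans, a difference of 1.77 ± 0.22 (adjusted p = 0.0064), against 1.19 ± 0.52 with 8 arrays (adjusted p = 0.64). For Obp99a it was 1.39 and -0.12, a difference of 1.51 ± 0.23 (adjusted p = 0.016), and for Obp99c 0.42 and -0.29, a difference of 0.71 ± 0.14 (adjusted p = 0.044). With 8 arrays these were 0.63 ± 0.70 and 0.21 ± 0.43. Without array 2 of sechellia choice the interaction of Obp99a was -0.26, that of Obp99c -0.29 and that of Obp19c 0.61, at adjusted p = 0.38, 0.11 and 0.05, none below the threshold.

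Eggshell genes, like Obp19c, had less signal in sechellia. The summed signal of the 5 ovary markers found, of 7 sought, was 19349 (array 1) and 30436 in sechellia choice and 19405 and 20399 in sechellia no choice, against 47613 and 47057 in simulans choice and 55246 and 56187 in simulans no choice. Both Obp19c and 4 of the 5 markers (Cp16, Cp18, Vm34Ca and vas) were higher on array 2 of sechellia choice than in sechellia no choice. On array 1 these 4 markers were higher than in no choice as well, while Obp19c, at 152.0, was not. The chorion gene Cp16 gave 3450.7 (array 1) and 4470.5 in sechellia choice, 1139.1 and 1073.7 in sechellia no choice, 7322.0 and 6697.6 in simulans choice and 8665.7 and 8039.3 in simulans no choice. Cp18, also of the chorion, gave 2987.1 (array 1) and 8474.5 in sechellia choice, 2598.3 and 2575.9 in sechellia no choice, 13902.7 and 13530.4 in simulans choice and 16446.9 and 17406.0 in simulans no choice. Vm34Ca, of the vitelline membrane, gave 5420.4 (array 1) and 7193.5 in sechellia choice and 4363.6 and 4000.3 in sechellia no choice, against 15793 to 16863 in simulans. The germ plasm gene osk had 6914.1 on array 1, below both sechellia no choice arrays, and was between 10097 and 14220 on the other 7. The germline gene vas ran the other way between the species, at 576.5 (array 1) and 165.8 to 199.8 on the other sechellia arrays, against 118.6 to 153.2 in simulans. The part of ovary RNA in the values of Obp19c was not tested.

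The tested genes whose profile over the 7 arrays was nearest to that of Obp19c were Cad74A, a cadherin gene, CG32642 and CG13737. After each gene was centred on its own mean, their log2 signals differed from those of Obp19c by a root mean square of 0.21, 0.22 and 0.25. The same measure gave FarO, a fatty acyl-CoA reductase gene, CG33514 and mtsh for Obp99b, at 0.29, 0.35 and 0.35. FarO had 1670.7 (array 1) and 1936.4 in sechellia choice and 1790.9 and 1885.8 in sechellia no choice, against 203.4 and 208.9 in simulans choice and 240.0 and 249.0 in simulans no choice. All of these values but that of array 1 entered the distance by which FarO was picked. For Obp18a the nearest were CG31041, Osi6, of the Osiris family, and Jon44E, of the Jonah proteases, at 0.39, 0.53 and 0.80. CG31041, at 64.2 and 13.5, and Osi6, at 52.4 and 11.8, had an uneven pair in sechellia no choice, as Obp18a had. This pair entered the distance by which they were picked, and the background of its second array was 13.5. For Obp19b they were CG15473, ppk9 and Sh, a potassium channel gene, at 0.30, 0.40 and 0.45. The other 5 tested members spanned less than 2 log2 units over the 7 arrays, and no nearest profile was sought for them.

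**Figure D4:**
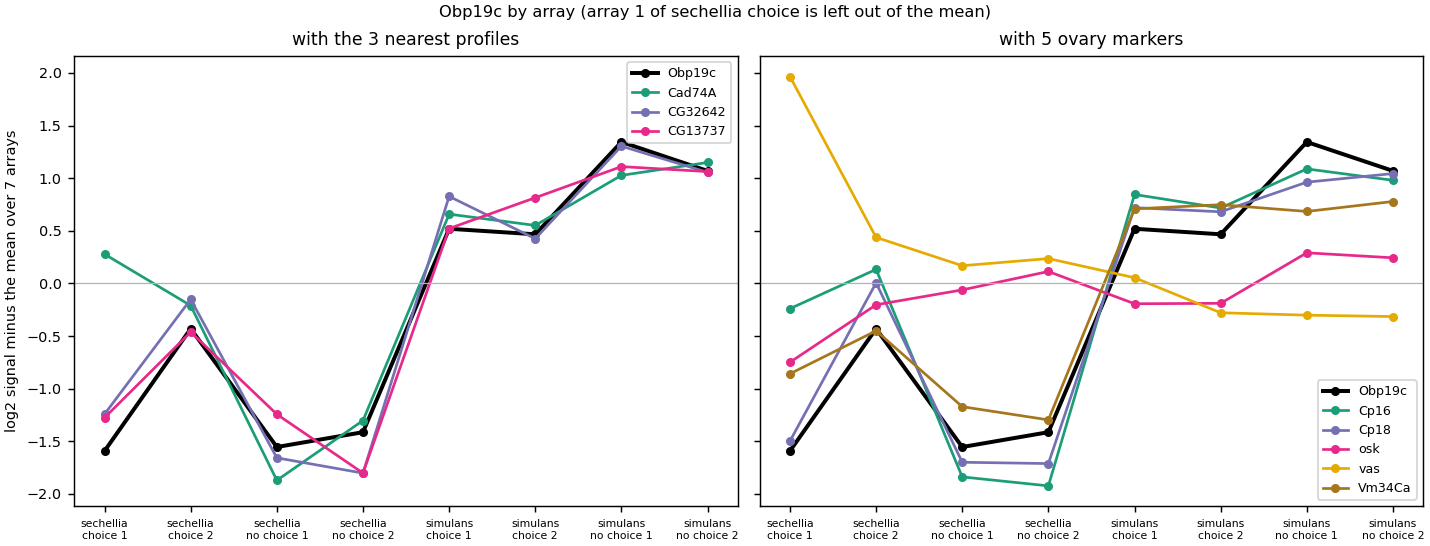
Log2 signal of Obp19c on each array, minus its mean over 7 arrays, with its 3 nearest profiles (left) and 5 ovary markers (right); points are arrays, and lines join the points of a gene. Obp19c, Cp16, Cp18 and Vm34Ca are lowest in sechellia no choice among the 7 arrays, intermediate on array 2 of sechellia choice and highest in simulans; on array 1 only Obp19c of these 4 lies below both sechellia no choice arrays. On the right, osk stays between 10097 and 14220 and vas between 118.6 and 199.8 on the 7 arrays.

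The rest of the odorant-binding protein family was measured on the same arrays. The annotation held 38 other such genes with a probe set of their own, of which 13 were bright enough to be tested. Of these 13, 1 was called for the species difference with 8 arrays, Obp56e, and 5 with 7 arrays, 2 higher and 3 lower in sechellia, against 9.87% and 32.5% of all tested probe sets. Their median log2 difference was 0.30 with 8 arrays and 0.37 with 7. Obp56e had 363.3 (array 1) and 187.7 in sechellia choice and 92.5 and 104.6 in sechellia no choice, against 791.7 and 749.1 in simulans choice and 692.5 and 674.8 in simulans no choice, a log2 difference of -2.18 ± 0.23 (adjusted p = 0.0013). Obp57a and Obp83ef were higher in sechellia with 7 arrays, by 0.38 and 0.89, and Obp83b and Obp84a, both of the antenna, were lower, by -2.22 and -1.59. With 8 arrays these 4 gave adjusted p between 0.072 and 0.28. Obp83b and Obp84a lay below the background of 21.5 on array 1 of sechellia no choice, at 18.5 and 13.8, so the size of their falls is uncertain. For choice in sechellia 1 of the 13, Obp56e, was called with 7 arrays (0.93, adjusted p = 0.034) and 0 with 8 (1 with an unadjusted p below 0.05), and for choice in simulans and for the interaction 0 of the 13 were called in either fit. Over all probe sets the shares called were 0.0533% and 2.49% for choice in sechellia with 8 and 7 arrays, 0.00761% and 0.274% for choice in simulans, and 0.0152% and 2.79% for the interaction. At an unadjusted p below 0.05, 1 of the 13 passed for choice in simulans with 7 arrays and 0 with 8, and 1 passed for the interaction in each fit.

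**Figure D5:**
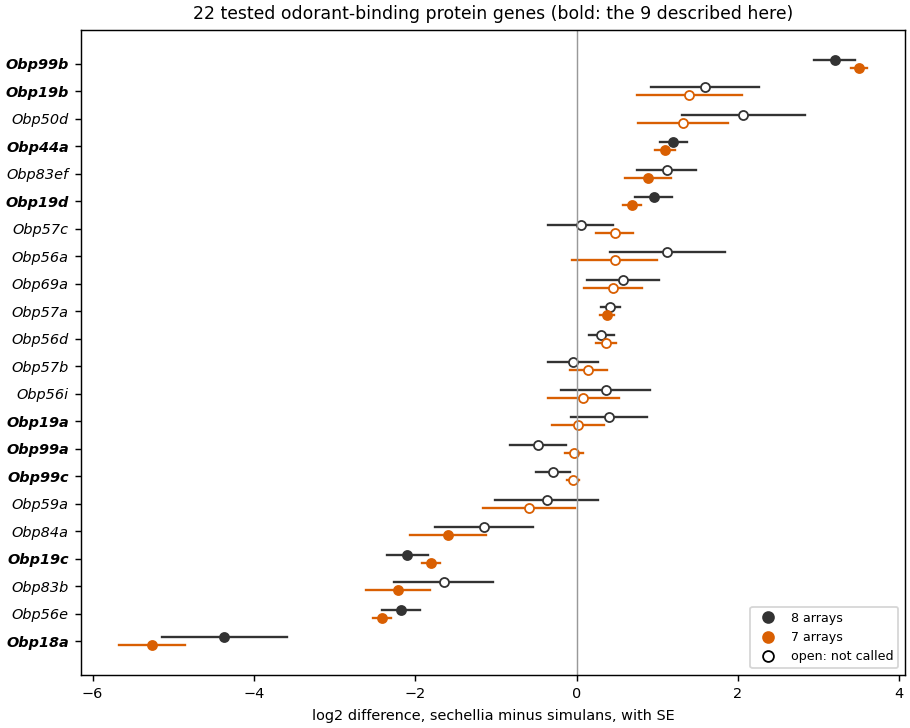
Log2 difference, sechellia minus simulans averaged over treatments, of the 22 tested odorant-binding protein genes, with SE, for 8 arrays (dark) and 7 arrays (orange); filled circles are called and bold names mark the 9 genes followed here. Obp99b is at the top at 3.50 and Obp18a at the bottom at -5.26 with 7 arrays.

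Other soluble carriers and their partners were looked at beside the family. Of 15 such genes in the annotation, 13 were tested, and 1 was called for the species difference with 8 arrays and 7 with 7 arrays, 4 higher and 3 lower in sechellia, against 9.87% and 32.5% of all tested probe sets. The gene called with 8 arrays was Npc2d, of the NPC2 family of sterol-binding proteins. It had 1226.0 (array 1) and 1456.7 in sechellia choice and 989.4 and 962.8 in sechellia no choice, against 175.8 and 176.1 in simulans choice and 133.3 and 122.1 in simulans no choice. Its log2 difference of 2.93 ± 0.15 (adjusted p = 4.2e-05) was 2.99 ± 0.11 with 7 arrays, and every sechellia array lay above every simulans array. Orco, the shared co-receptor of the odorant receptors, gave 0.10 ± 0.69 with 8 arrays and -0.72 ± 0.32 with 7 (adjusted p = 0.94 and 0.13), and was not called.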

How the data were processed

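RNA from adult female bodies of 4 groups, 2 arrays each, was measured on Affymetrix arrays. The deposited values are linear probe-set intensity (signal), for which the submitters' processing notes name MAS5 without a version. Their 2% trimmed mean was 500 on each array, so the intensities were only taken to log2. Tests leave out 183 control probe sets and, of the remainder, the 30% dimmest by mean log2 signal. limma 3.58.1 in R 4.3.3 (lmFit, eBayes with an intensity trend) was fitted to the 13138 probe sets left, with the 4 groups as cell means, no covariates and 4 residual degrees of freedom (3 with 7 arrays). P-values were adjusted by Benjamini-Hochberg over all of these. The fit was tested on simulated data. The number of arrays limits the precision.

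Background is the median of 27 Bacillus control probe sets on the same array. Where a gene lay below it on all arrays of a group, signals were raised to it. The change is then a bound with regard to background only, without the spread between arrays. Of several probe sets of a gene, the brightest stands for it. All members are named. Other family members are named where called with 8 arrays (at most 3 in each direction), and those called with 7 arrays only were named after their values were seen. Nearest profiles are the 3 with the smallest root mean square distance over 7 arrays, for members spanning at least 2 log2 units. Members and lists were chosen with earlier results of these data known. Same-numbered arrays did not pair: their deviations from the group means correlated at -0.12 to 0.05 over 6 group pairs. Alternatives were quantile normalisation, median centring, log2(signal + 16), no dim filter, no trend, a replicate block, only the arrays compared, and leaving out each array.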

Additional observations from a re-analysis of the deposited data

Results flagged for a closer look

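Obp19c, Obp99a and Obp99c differed between the species in their change with choice by the interaction test with 7 arrays: Obp19c by log2 1.77, Obp99a by 1.51 and Obp99c by 0.71 (sechellia minus simulans). In each, sechellia choice is 1 array. With 8 arrays limma called none of the 3 (adjusted p = 0.64, 0.7 and 0.83), and on array 1 of sechellia choice all 3 genes lay below both no choice arrays of sechellia. Of the 5 ovary markers, Cp16, Cp18, Vm34Ca and vas were higher than in sechellia no choice on both sechellia choice arrays, and osk was lower on both. Their part in these values was not tested.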

How the results depend on the processing

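Of 259 values of single genes under the alternatives that kept all arrays or used 7 arrays with quantile normalisation, 201 kept their direction and their side of the threshold, 18 lost a call, 22 gained one and 18 turned, 2 of them of the dim second probe set of Obp19c. Of the 46 counts of members called, 35 were within 1.5 times the count given.

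The count of members called for the averaged species difference (5) was 3 after median centring. In choice (2) it was 1 after median centring, 1 without an intensity trend, 1 with the replicate block, 0 with only the arrays compared and 6 with 7 arrays and quantile normalisation. In no choice (3) it was 1 after median centring, 7 with only the arrays compared and 7 with 7 arrays and quantile normalisation. With those 7 arrays and quantile normalisation 2 members were called for choice in sechellia and 3 for the interaction (0 each with 8 arrays). Leaving out 1 array at a time gave 3 to 8 members for the averaged difference, 0 to 8 in choice, 1 to 7 in no choice, 0 to 5 for choice in sechellia, 0 to 0 for choice in simulans and 0 to 3 for the interaction. For the averaged difference, in choice and for choice in sechellia the highest count came without array 2 of sechellia choice, which leaves array 1 alone in its group. The cause was not tested.

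After quantile normalisation the sign turned for Obp19a averaged (-0.090), Obp99c in choice (0.019), choice in sechellia of Obp19c (-0.47), Obp99a (-0.24) and Obp99c (0.13), and the interaction of Obp99a (-0.13). After median centring it turned for Obp19a averaged (-0.033), choice in sechellia of Obp19c (-0.31) and Obp99a (-0.27), and the interaction of Obp99a (-0.10) and Obp99c (-0.52). With 7 arrays and quantile normalisation it turned for Obp19a (-0.11) and Obp99a (0.0036) averaged, Obp99a (0.75) and Obp99c (0.35) in choice and Obp99c for choice in sechellia (0.47). The other probe set of Obp19c gave 1.21 averaged (adjusted p = 0.45) and 3.01 in choice (adjusted p = 0.21), but both simulans choice arrays lay below background. Raised to background these were 1.25 and 2.62, and without array 1 0.72 and 1.57. Leaving out 1 array turned choice in sechellia of Obp99a (-0.38 to 1.39), Obp99c (-0.59 to 0.42) and Obp19c (-0.11 to 1.05), choice in simulans of Obp99a (-0.32 to 0.069), the interaction of Obp99a (-0.26 to 1.51) and Obp99c (-0.29 to 0.71), and the species difference in choice of Obp99a (-1.05 to 0.72) and Obp99c (-0.69 to 0.31).

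Counts over all probe sets moved more. For the averaged difference 1297 were called, 419 after median centring, 841 without a trend, 4420 with 7 arrays and quantile normalisation and 472 to 8160 with 1 array left out. In choice 544 were called, and these alternatives gave 103, 138, 2725 and 50 to 8980, with 313 under the replicate block and 19 with only the arrays compared. In no choice 554 were called, and they gave 117, 236, 3804 and 107 to 3705, with 3487 from only the arrays compared. For choice in sechellia 7 were called, and they gave 1, 0, 415 and 1 to 8671, with 20 after quantile normalisation, 4 under the block and 0 from only the arrays compared. For choice in simulans 1 was called, and they gave 0, 0, 67 and 0 to 36, with 0 after quantile normalisation, 2 without the dim filter, 0 under the block and 16 from only the arrays compared. For the interaction 2 were called, and they gave 0, 0, 414 and 0 to 7300, with 10 after quantile normalisation and 0 under the block.

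The labels number the arrays, but no pair of groups showed same-numbered arrays deviating together (r at most 0.05). Under the replicate block 5 members were called for the averaged difference and 4 in no choice, and the choice call of Obp44a was lost (adjusted p = 0.06). Signals near background, as in Obp18a, Obp19b and Obp99d, limit what the arrays can show.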
